A study of Mus musculus with 6 samples.

Results

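Transcripts of 10 genes that govern G1, the phase in which a cell decides whether to divide, were followed in osteoblast libraries labelled as Cdc73 knockout and as wildtype. The genes were taken by name: the cyclins Ccnd1, Ccnd2 and Ccnd3, the kinases Cdk4 and Cdk6, the inhibitors Cdkn1b, Cdkn2c and Cdkn2d, the retinoblastoma gene Rb1, and Myc. All 10 were found among the 27179 gene IDs of the count table, and all 10 passed the filter on low counts. Osteoblasts were obtained from calvaria, the flat skull bones, of C57Bl/6J pups 5 days old by collagenase digestion and by sorting for GFP under the control of Osteocalcin-Cre. The knockout group held 3 libraries whose labels read Cdc73/Hrpt2 KO and whose titles read Flox, and the wildtype group held 3 libraries. Osteocalcin is a gene of mature osteoblasts, so deletion is directed to those cells, and the labels state the same sort for both groups. The labels do not state how many pups made up a library, or whether the wildtype pups carried the floxed allele or Cre. The p-values therefore measure the spread between these libraries, which may be technical.

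D cyclins are made in response to growth signals and activate the kinases CDK4 and CDK6. These kinases phosphorylate the retinoblastoma protein, which then releases E2F transcription factors that switch on the genes of DNA replication. The INK4 proteins, to which the products of Cdkn2c and Cdkn2d belong, bind CDK4 and CDK6, while p27, the product of Cdkn1b, binds cyclin-kinase complexes. MYC is a transcription factor that binds DNA with its partner MAX and drives growth genes. Parafibromin, the product of Cdc73 and a subunit of the Paf1 complex on RNA polymerase II, has been described as a repressor of Ccnd1 and Myc, and the comparison sets the levels of these genes in the libraries labelled knockout beside those labelled wildtype.

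None of the 10 genes passed the test. With Benjamini-Hochberg adjustment, the quasi-likelihood test of edgeR called 0 of 13505 genes over the whole table (0%), and the adjusted p of the 10 genes ranged from 0.302 for Cdkn2c to 0.997 for Cdkn2d. DESeq2 also called 0 of the 10 (1.84% of all genes), giving no adjusted p for Cdk6, and without wildtype 1 edgeR called 0 of the 10 (2.96% of all genes, and 0.832% in the lower direction). At an unadjusted p under 0.05, 0 of the 10 were higher, against 8.26% of all genes tested, and 2 were lower (Cdk4 and Cdkn2c), against 6.35%. Other fits also placed Myc there, on the higher side: edgeR without wildtype 2 (unadjusted p = 0.0349), without the filter on low counts (0.0363) and with the replicate number as a block (0.0178), DESeq2 (0.0369), and limma voom without (0.0431) and with quality weights (0.0245). Cdk6 was higher at an unadjusted p of 0.0282 when wildtype 1 was left out. In edgeR with 1 library left out, Cdk4 rose above an unadjusted p of 0.05 without wildtype 2 (0.0905), knockout 1 (0.0636) or knockout 2 (0.0963). Cdkn2c did so without wildtype 2 (0.0641), knockout 2 (0.0591) or knockout 3 (0.0619). With wildtype 1 as the only control the log2 fold change was -0.14 for Cdk4 and -0.41 for Cdkn2c. For Myc and Ccnd2 the knockout libraries all lay above the wildtype libraries, as they did for 10.6% of all genes. Cdk4 and Cdkn2c lay lower in every knockout library, as did 9.81% of all genes. The median log2 fold change of knockout over wildtype was 0.11 over the 10 genes and -0.01 over all genes tested. Scaling by library size alone put these medians at -0.11 and -0.21. Of the 10 genes 6 were positive and 4 negative, against 49.3% and 50.7% of all genes tested. These counts depended on the control libraries. Without wildtype 2, 6 of the 10 were negative with a median of -0.03, and with wildtype 1 as the only control 6 were negative with a median of -0.04. That last fit has 1 control, and takes its spread from the knockout libraries.

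Several features of the libraries bear on these values. Totals ran from 13591925 to 20993962 counts. Wildtype 1 correlated more closely across genes with each knockout library than with either other wildtype library (log2 CPM, with genes not being independent replicates). By chi-square per degree of freedom between raw counts, however, wildtype 1 was nearest to wildtype 2 (30.3). That value was 52.8, 72.5 and 69.5 with knockout 1, 2 and 3, and 54.1 with wildtype 3. At equal depth 14608 gene IDs had a count in wildtype 2 and 15637 in wildtype 3, against 16935 to 17813 in the other 4 libraries. Cdc73 itself measured 13.98, 14.7 and 14.4 CPM (counts relative to the library total, after TMM scaling) in knockout 1, 2 and 3 and 20.5, 12.8 and 21.7 CPM in wildtype 1, 2 and 3. Wildtype 2 lay below every knockout library for Cdc73, so the count over the whole gene did not check every label, and directions refer to the libraries as labelled. The log2 fold change of Cdc73 was -0.36 ± 0.22 (SE, adjusted p = 0.428).

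Osteoblast markers were detected in all libraries, with 12 of 12 genes tested and a summed level of 237140 to 350820 CPM in knockout and 281320 to 306960 CPM in wildtype libraries. Of these 12 genes 10 were negative, with a median of -0.35. At an unadjusted p under 0.05, 4 were lower (6.35% of all genes) and 0 higher (8.26%). Dropping wildtype 3 reduced the lower genes to 2, and dropping wildtype 2 reduced them to 3. Dropping wildtype 1 kept them at 4. Scaling by library size alone raised them to 8, where 2487 of all 13505 genes were lower. Set against wildtype 1 alone, 9 of these markers were negative and their median shrank to -0.17. Markers of several other cell types had positive fold changes, with 0 of them past the threshold over all genes when all 6 libraries were used. At an unadjusted p under 0.05, 12 of 12 chondrocyte, 7 of 10 endothelial, 11 of 12 macrophage and 6 of 8 neutrophil markers were higher, against 8.26% of all genes. Without wildtype 1 edgeR called 10 of the 12 chondrocyte and 7 of the 10 endothelial markers higher (adjusted p under 0.05, against 2.13% of all genes), and 0 of the macrophage and neutrophil markers. All 12 chondrocyte markers were positive (summed 11801 to 26606 CPM in knockout, 3545 to 10081 CPM in wildtype), as were all 10 endothelial markers (129.9 to 225 against 51.3 to 131 CPM). All 12 macrophage markers (168 to 395 against 99.6 to 144 CPM) and all 8 neutrophil markers (56.7 to 193 against 20.2 to 54.6 CPM) were positive too. Of these 4 lists, only the neutrophil gene Elane was at 0 counts in any library. Erythroid markers were positive in 6 of 6 genes, with overlapping sums (49.9 to 401 against 17.5 to 115 CPM), and sums also overlapped for the 7 muscle markers (6.66 to 32.8 against 8.48 to 44.0 CPM) and the 7 fibroblast markers (3088 to 4462 against 3519 to 4410 CPM). The 10 genes described here are expressed by most dividing cells, and the part of these other cells in their values was not tested. In sorted bulk samples, a change in the mixture of cells cannot be told apart from a change in RNA per cell.

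**Figure D1:**
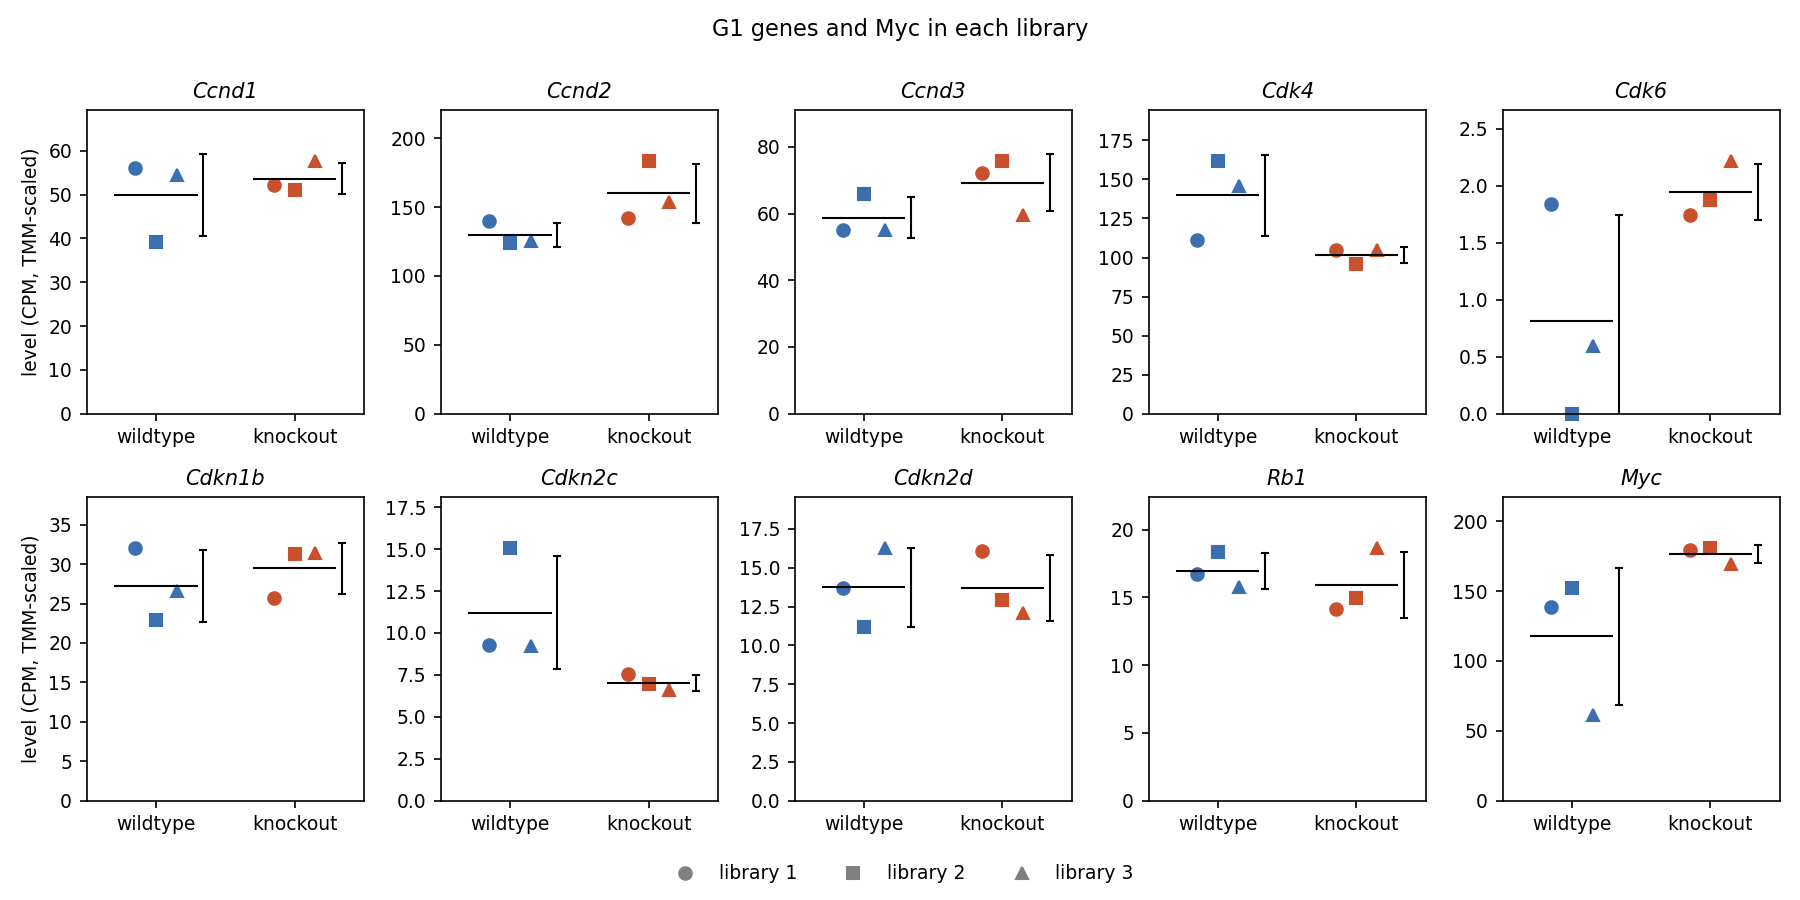
Levels of the 10 genes (y axes, TMM-scaled CPM, starting at 0) in wildtype and knockout libraries, with 1 symbol per library, a horizontal line at the group mean and a bar of ± 1 SD (n = 3, cut off at 0 for Cdk6 in wildtype). Cdk4 and Cdkn2c lie lower and Myc and Ccnd2 higher in every knockout library, and wildtype 3 is far below the other libraries for Myc (61.6 CPM).

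The D cyclins differed little between the groups. Ccnd1 (gene ID 12443, chr7:144929931-144939831 in mm10, minus strand), the cyclin named in the question, measured 52.1, 51.1 and 57.8 CPM in knockout 1, 2 and 3 and 56.2, 39.2 and 54.5 CPM in wildtype 1, 2 and 3. Only wildtype 2 stood below the rest, and the groups overlapped. The means were 53.6 ± 3.60 and 49.95 ± 9.33 CPM (SD, with 3 libraries in each group), which gave a log2 fold change of 0.10 ± 0.17 (adjusted p = 0.783). Without wildtype 2 the sign turned (-0.06), as it did with wildtype 1 as the only control (-0.08) and with library size alone (-0.11). LTO1, a gene on the opposite strand, shares 1100 bases of annotated exon with Ccnd1, or 23.4% of its exon length, and measured 5.599 ± 0.505 against 4.55 ± 2.14 CPM. The sources used here do not give the strand setting of the counting, so reads of the shared stretch cannot be assigned.

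Ccnd2 (gene ID 12444, chr6:127125162-127152188, minus strand) was the most abundant D cyclin by plain CPM and also per exon length. It measured 142, 184 and 154 CPM in the knockout libraries and 140, 124 and 125 CPM in the wildtype libraries. The groups did not overlap, but knockout 1 exceeded wildtype 1 by only 142 to 140 CPM. The means were 160 ± 21.4 and 130 ± 8.90 CPM, a log2 fold change of 0.30 ± 0.16 (adjusted p = 0.391), and it was 0.10 with library size alone. Ccnd3 (gene ID 12445, chr17:47505051-47599689, plus strand) measured 72.3, 75.9 and 59.7 CPM against 55.2, 65.9 and 55.1 CPM. Wildtype 2 lay within the knockout range. The log2 fold change was 0.24 ± 0.16 (adjusted p = 0.459), and 0.05 with library size alone.

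The make-up of the D cyclin pool was also compared, as each gene's share of the summed counts per exon length within a library, a quantity that does not depend on scaling between libraries. Ccnd1 made up 32.1, 27.8 and 34.6% in the 3 knockout libraries and 36.0, 28.7 and 37.1% in the 3 wildtype libraries. The lowest share of each group was in its library 2. The mean shares were 31.5 ± 3.46% and 33.9 ± 4.57% (SD over 3 libraries), a difference of -2.43 percentage points (exact two-sided permutation test, p = 0.5, the smallest possible p being 0.1). Ccnd2 held 46.7 ± 3.10% and 44.4 ± 1.42%, and Ccnd3 held 21.8 ± 2.38% and 21.7 ± 3.69%. All 3 cyclins were thus present in all 6 libraries, with Ccnd2 taking the largest share per exon length in each.

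**Figure D2:**
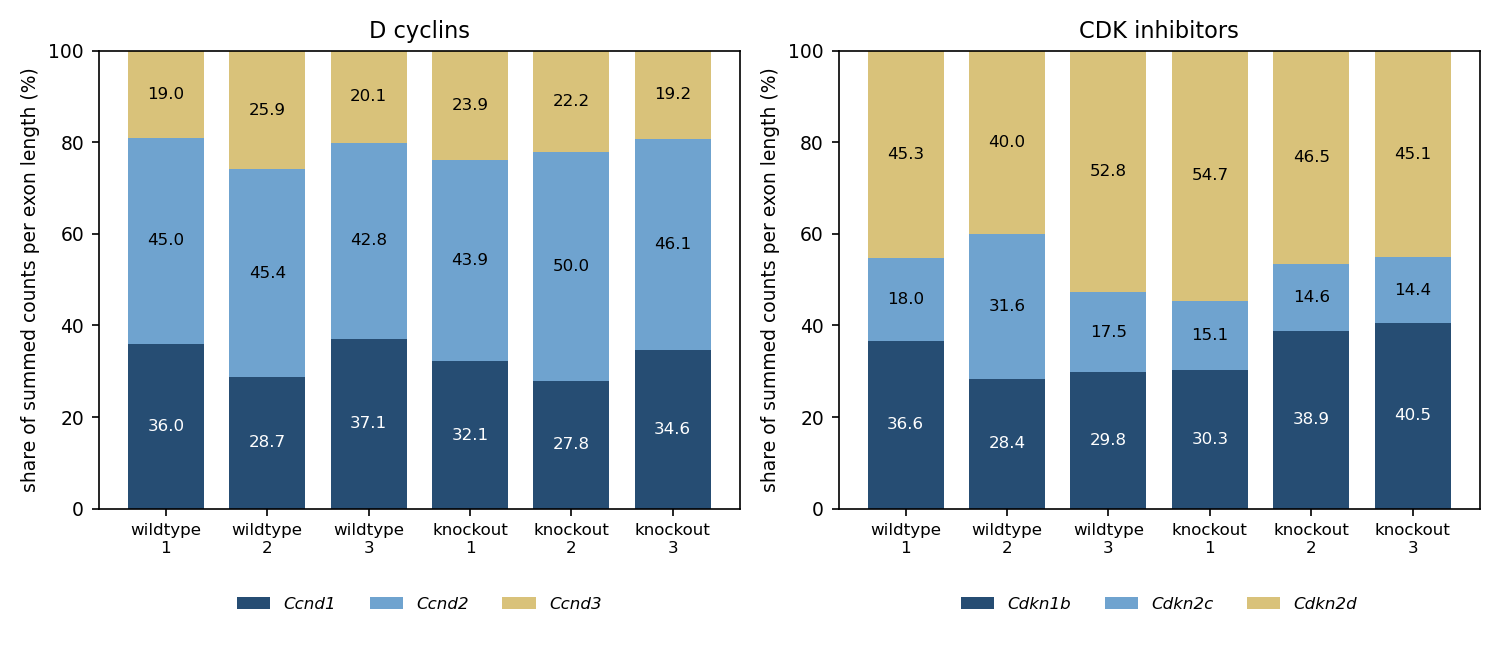
Shares (y axes, percent of summed counts per exon length within a library) of the D cyclins Ccnd1, Ccnd2 and Ccnd3 (left) and of the inhibitors Cdkn1b, Cdkn2c and Cdkn2d (right), 1 stacked bar per library. Ccnd2 is the largest D cyclin share in all 6 libraries, and Cdkn2c takes 31.6% in wildtype 2 against 14.4 to 18.0% in the other libraries.

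Cdk4 (gene ID 12567, chr10:127063535-127067288, plus strand) encodes the main partner kinase of the D cyclins in most cells and had the highest level per exon length after Myc. It measured 105, 95.6 and 105 CPM in knockout 1, 2 and 3 and 111, 162 and 146 CPM in wildtype 1, 2 and 3. All knockout libraries lay below all wildtype libraries, with wildtype 1 close to the knockout values and wildtype 2 and 3 well above them. The means were 102 ± 5.28 and 140 ± 25.8 CPM, a log2 fold change of -0.46 ± 0.18 (unadjusted p = 0.0272, adjusted p = 0.312). Without wildtype 1 it was -0.62 ± 0.15 (adjusted p = 0.0621), and with wildtype 1 as the only control -0.14. Tspan31, a membrane protein gene on the opposite strand that shares 641 bases of exon with Cdk4 (19.7% of its exon length), measured 58.5 ± 8.31 against 74.9 ± 16.8 CPM (-0.35 ± 0.20). The part of shared reads in the Cdk4 difference was not tested.

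Sequence upstream of the start is shown for Cdk4 and Cdkn2c, because these were the members of lowest unadjusted p. The RefSeq promoter table (GRCm38.p6, the assembly of mm10) held entries for 6 of the 10 genes, Ccnd3, Cdk4, Cdk6, Cdkn1b, Cdkn2c and Cdkn2d. Each line gives the 250 bases before the annotated start, 5′ to 3′ on the gene's strand, with each CACGTG in capitals. This palindrome is the E-box bound by MYC and MAX and also by other factors of their class. The Cdk4 stretch is chr10:127063285-127063534 (plus strand) and the Cdkn2c stretch chr4:109666757-109667006 (minus strand).
Cdk4: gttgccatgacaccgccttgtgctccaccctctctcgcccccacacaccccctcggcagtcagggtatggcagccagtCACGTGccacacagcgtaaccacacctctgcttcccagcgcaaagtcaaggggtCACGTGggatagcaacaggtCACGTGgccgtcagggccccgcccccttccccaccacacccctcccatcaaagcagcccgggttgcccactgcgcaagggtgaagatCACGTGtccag
Cdkn2c: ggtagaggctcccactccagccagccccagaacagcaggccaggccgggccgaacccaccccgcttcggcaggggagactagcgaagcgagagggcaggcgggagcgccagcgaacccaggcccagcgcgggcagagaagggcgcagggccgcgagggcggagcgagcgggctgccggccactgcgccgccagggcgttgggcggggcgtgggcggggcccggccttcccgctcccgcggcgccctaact
Cdk4 held 4 copies, beginning 172, 118, 98 and 11 bases before the start. Cdk6 held 1, and the other 4 genes held 0 in the 300-base window of 250 bases before and 50 after the start. The start in the promoter table lay 2889 bases from the annotated gene start for Cdk6 and 212 bases for Cdkn2d. Ccnd3 and Cdkn2c had 2 entries each, of which the nearest to the gene start was used. Of 32851 promoter windows in the table, 7.15% held at least 1 copy and 8 (0.0244%) held at least 4. The E2F words TTTCGCGC, TTTGGCGC, TTTCCCGC and TTTGCCGC, searched on both strands, were in 0 of the 6 windows and in 2.26% of all windows. Such matches describe letters only and say nothing of binding in these cells.

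Cdk6 (gene ID 12571, chr5:3341004-3531008, plus strand), the other partner kinase of the D cyclins, was close to the limit of detection. It had 29, 27 and 27 counts in knockout 1, 2 and 3 (1.74, 1.88 and 2.22 CPM) and 42, 0 and 10 counts in wildtype 1, 2 and 3 (1.84, 0 and 0.597 CPM). Wildtype 1 lay within the knockout range, while wildtype 2 had no read, which allows up to 3 counts or 0.209 CPM by counting error alone. The log2 fold change of 1.19 ± 0.88 (adjusted p = 0.499) thus rested on wildtype 2 and 3, the libraries with the fewest detected genes. It was 0.63 without wildtype 2, 0.07 with wildtype 1 as the only control and 2.60 without wildtype 1 (adjusted p = 0.130). Cdk4 made up 99.6 ± 0.05% of Cdk4 plus Cdk6 per exon length in knockout and 99.8 ± 0.20% in wildtype libraries, a difference of -0.28 percentage points (exact permutation p = 0.1, the smallest possible, and 0.3 adjusted over the 3 shares compared). All 3 knockout libraries had a lower Cdk4 share than any wildtype library, but knockout 1 (99.615%) and wildtype 1 (99.619%) were nearly equal.

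The balance of kinase and cyclin transcripts was also read within libraries. Per exon length, the ratio of Cdk4 to the summed D cyclins was 0.936, 0.754 and 0.912 in knockout 1, 2 and 3, while wildtype 1, 2 and 3 had 1.04, 1.72 and 1.44. Every knockout ratio was below every wildtype ratio, and wildtype 1 was the nearest to the knockout libraries. With the length of the longest transcript in place of summed exons the means were 0.866 ± 0.10 and 1.40 ± 0.31. This ratio was chosen after the values were seen and carries no test.

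Of the 3 inhibitors, Cdkn2c alone had an unadjusted p under 0.05. Cdkn2c (gene ID 12580, chr4:109660876-109666756, minus strand), which encodes the INK4 protein p18, measured 7.56, 6.95 and 6.58 CPM in the knockout libraries and 9.31, 15.1 and 9.20 CPM in the wildtype libraries. The knockout libraries lay close together and below all wildtype libraries, of which wildtype 2 was the highest. The means were 7.03 ± 0.494 and 11.2 ± 3.37 CPM, a log2 fold change of -0.67 ± 0.24 (unadjusted p = 0.0216, adjusted p = 0.302). Leaving out wildtype 2 brought it to -0.41 ± 0.19, the same as with wildtype 1 as the only control (-0.41), and without wildtype 1 it was -0.80 (adjusted p = 0.0918).

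Cdkn1b (gene ID 12576, chr6:134920401-134925525, plus strand), the p27 gene, measured 25.7, 31.3 and 31.3 CPM against 32.1, 23.0 and 26.6 CPM, with overlapping groups (log2 fold change 0.11 ± 0.18, adjusted p = 0.762). Its sign turned without wildtype 2 (-0.01), with wildtype 1 as the only control (-0.14) and with library size alone (-0.10). Cdkn2d (gene ID 12581, chr9:21288459-21291421, minus strand), which encodes the INK4 protein p19, measured 16.1, 12.9 and 12.1 CPM against 13.7, 11.2 and 16.3 CPM. Its group means were equal at 13.7 CPM (SD 2.10 and 2.55), and the interval of 1 SE around its log2 fold change spans 0.20 to either side of 0. Among these 3 inhibitors, Cdkn1b took 36.5 ± 5.49% of the transcripts per exon length in knockout and 31.6 ± 4.43% in wildtype libraries, a difference of 4.95 percentage points (exact permutation p = 0.2). The Cdkn2c share was 15.1, 14.6 and 14.4% in knockout 1, 2 and 3, while wildtype 1, 2 and 3 had 18.0, 31.6 and 17.5%.

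Rb1 (gene ID 19645, chr14:73192858-73325951, minus strand), the target of the cyclin D kinases, measured 14.2, 14.9 and 18.7 CPM in the knockout libraries and 16.7, 18.4 and 15.8 CPM in the wildtype libraries. The groups overlapped and the log2 fold change was -0.09 ± 0.18 (adjusted p = 0.810). Lpar6 and Rcbtb2, genes on the opposite strand, share 408 and 488 bases of exon with it. Rcbtb2 measured 27.4 ± 2.91 against 36.1 ± 3.19 CPM (-0.40 ± 0.16, adjusted p = 0.320), and Lpar6 6.45 ± 1.60 against 7.03 ± 1.58 CPM. The part of shared reads in the Rb1 values was not tested.

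Myc (gene ID 17869, chr15:61985341-61990361, plus strand), the other gene named in the question, had the highest level per exon length of the 10. It measured 179, 181 and 169 CPM in knockout 1, 2 and 3 and 139, 152 and 61.6 CPM in wildtype 1, 2 and 3. The knockout libraries lay within a narrow range above all wildtype libraries, and wildtype 3 stood far below wildtype 1 and 2. The means were 177 ± 6.43 and 118 ± 48.9 CPM, a log2 fold change of 0.59 ± 0.29 (unadjusted p = 0.0734, adjusted p = 0.370). Without wildtype 3 the log2 fold change was 0.27 ± 0.15 (adjusted p = 0.547), and without wildtype 2 it was 0.80 ± 0.32 (adjusted p = 0.412). With wildtype 1 as the only control it was 0.34, and with library size alone 0.39. All 17 alternative fits kept a positive sign for Myc, from 0.27 to 0.80, and the adjusted p ranged from 0.199 to 0.948.

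**Figure D3:**
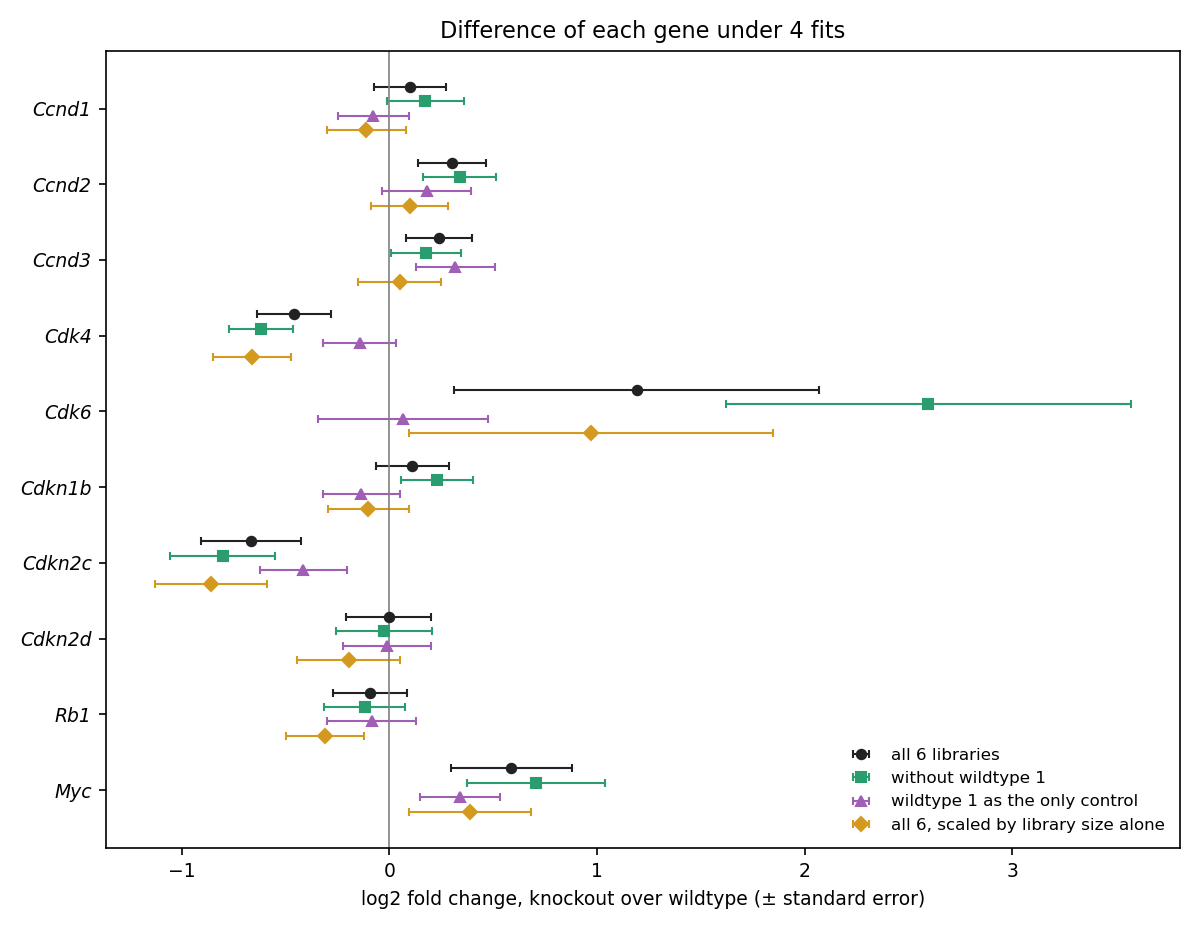
Log2 fold change of knockout over wildtype (x axis, ± standard error) for each of the 10 genes under 4 fits: all 6 libraries, without wildtype 1, with wildtype 1 as the only control, and all 6 libraries scaled by library size alone. Myc, Cdk6, Ccnd2 and Ccnd3 stay on the positive side and Cdk4, Cdkn2c, Rb1 and Cdkn2d on the negative side in these 4 fits. Ccnd1 and Cdkn1b take both signs. The bars for wildtype 1 as the only control assume that it varies like the knockout libraries.

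Per kilobase of annotated exon, the order of the mean levels over all 6 libraries was Myc (54.1 CPM per kb), Cdk4 (37.2), Ccnd2 (15.4), Ccnd1 (11.0), Cdkn2d (8.72), Ccnd3 (7.30), Cdkn1b (6.22), Cdkn2c (3.39), Rb1 (2.73) and Cdk6 (0.0985). The ranges over libraries did not overlap between Cdk4 and Ccnd2, between Ccnd2 and Ccnd1, or between Rb1 and Cdk6. All other neighbours in that order overlapped. Myc exceeded Cdk4 in 5 of 6 libraries, the exception being wildtype 3. With the longest annotated transcript as the length, Ccnd3 moved up to rank 4 at 16.6 CPM per kb, since its annotated exons add up to 8775 bases against 3858 for its longest transcript.

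Genes with the most similar course over the 6 libraries were sought among 9617 named genes whose mean reached 5 CPM, by the root mean square difference of log2 CPM after centring each gene on its own mean. For Myc these were Slc25a22 (0.06), Csrnp1 (0.07), Irx3 (0.09), Phf13 (0.09) and Adamts4 (0.10), against a standard deviation of 0.54 for Myc itself. All 5 were lowest in wildtype 3, as Myc was, which follows from choosing them by likeness to Myc. Csrnp1, for example, measured 146.8, 149 and 128 CPM in the knockout and 102, 110 and 45.9 CPM in the wildtype libraries. For Ccnd1 they were Timm29 (0.04), Pnpla8 (0.05), Ckap5 (0.05), Dpm1 (0.05) and Ccn4 (0.05), against a standard deviation of 0.18. All 5 were lowest in wildtype 2, as Ccnd1 was, which again follows from the choice by likeness.

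Other genes of the pathway were examined in lists. Of 13 other cyclins, kinases and inhibitors of G1 and G1/S, 12 were tested (Cdkn2a, at 0.613 and 0.656 CPM, was not), with 6 positive, 6 negative and 0 past the threshold. At an unadjusted p under 0.05, 2 were higher (8.26% of all genes) and 3 lower (6.35%). Cdkn1a, which encodes the kinase inhibitor p21, measured 254, 223 and 205 CPM in the knockout and 176, 160 and 162 CPM in the wildtype libraries (0.45 ± 0.16, adjusted p = 0.293). Cyclin A2, encoded by Ccna2 and needed for DNA replication and mitotic entry, measured 23.5, 24.4 and 19.2 CPM against 30.3, 37.9 and 29.4 CPM (-0.54 ± 0.17, adjusted p = 0.285). Ccnh, the cyclin of the kinase that activates other CDKs, had a log2 fold change of -0.52 ± 0.18 (adjusted p = 0.291). The groups did not overlap for these 3 genes, which were named for the lowest p in the list. Over all genes, 10.6% lay higher and 9.81% lower in every knockout library.

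The 17 pocket proteins and E2F family genes showed little difference, with 8 positive, 9 negative, 0 at an unadjusted p under 0.05 and a median of -0.09. The lowest p belonged to Rbl1, a relative of Rb1 (-0.36 ± 0.20), E2f6 (0.32 ± 0.21) and Lin37 (-0.58 ± 0.39), all with overlapping groups and adjusted p of 0.402 to 0.456. Of 13 genes for turnover of D cyclins, p27 and Myc, 10 were negative, with a median of -0.20. That median was -0.32 without wildtype 1, -0.13 without wildtype 2 and -0.03 without wildtype 3. Skp2, the ubiquitin ligase subunit that marks p27 for destruction, measured 20.6, 20.2 and 28.1 CPM in knockout and 36.1, 35.0 and 44.1 CPM in wildtype libraries, without overlap (-0.74 ± 0.19, adjusted p = 0.273). Fzr1, an activator of the anaphase-promoting complex, was also lower in every knockout library (-0.31 ± 0.15, adjusted p = 0.355), as were 9.81% of all genes. The kinase gene Gsk3b overlapped (0.50 ± 0.23, adjusted p = 0.355). Without wildtype 1, Gsk3b was the 1 gene of this list that edgeR called, at 0.80 (adjusted p = 0.0462), where 2.13% of all genes were called higher.

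Among 11 partners and antagonists of Myc, 4 were positive and 7 negative, with a median of -0.02. At an unadjusted p under 0.05, 1 gene was lower (6.35% of all genes). That gene was Mxd3, which encodes a MAX partner linked to proliferating cells, at 5.94, 6.18 and 3.78 CPM in knockout and 6.91, 13.8 and 13.97 CPM in wildtype libraries (-1.11 ± 0.32, adjusted p = 0.273). Its wildtype 1 value lay just above the knockout range. Without wildtype 1 edgeR called it at -1.40 (adjusted p = 0.0384), where 0.832% of all genes were called lower. Mxd1 (0.39 ± 0.20) and Zbtb17 (-0.24 ± 0.19) had overlapping groups. Of 22 target genes of Myc in ribosome assembly and growth, 14 were positive and 8 negative, with a median of 0.13. Those with the lowest p were the nucleolar protein genes Nop56 (0.41 ± 0.15) and Nop58 (0.43 ± 0.17), and Odc1, the first enzyme of polyamine synthesis (0.35 ± 0.18). These 3 lay higher in every knockout library, with adjusted p of 0.305, 0.320 and 0.370. Of the 22 genes 4 lay so, as did 10.6% of all genes. At an unadjusted p under 0.05, 2 of the 22 were higher (8.26% of all genes) and 0 lower (6.35%). Scaled by library size alone, this list had a median of -0.08, against -0.21 for all genes.

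The genes downstream of E2F and those of mitosis were mostly negative. Of 18 E2F target genes of DNA replication, 15 were negative, 5 of them at an unadjusted p under 0.05 (6.35% of all genes), with a median of -0.33. Tk1, thymidine kinase, measured 8.34, 7.09 and 6.75 CPM in knockout and 9.92, 17.8 and 13.7 CPM in wildtype libraries (-0.89 ± 0.24, adjusted p = 0.273). Tyms, thymidylate synthase, had a log2 fold change of -0.91 ± 0.31, and Chaf1b, a histone chaperone subunit, of -0.64 ± 0.22 (adjusted p = 0.291 for both). With wildtype 1 as the only control 15 of the 18 were still negative, with a median of -0.16. Without wildtype 1 the median was -0.40 and edgeR called 2 of the 18 (0.832% of all genes in the lower direction), Tyms (-1.22, adjusted p = 0.0367) and Tk1 (-1.10, adjusted p = 0.0409). Of 16 mitosis genes, 15 were negative and 13 of them had an unadjusted p under 0.05, with a median of -0.60. The lowest p belonged to Cdc20 (-0.89 ± 0.19), Plk1 (-0.88 ± 0.20) and Cdk1 (-0.74 ± 0.18), each with an adjusted p of 0.273. Without wildtype 1 edgeR called these 3 of the 16 genes, Cdc20 at -1.06 (adjusted p = 0.0337), Cdk1 at -0.88 (0.0409) and Plk1 at -0.99 (0.0462), and the list's median was -0.65. It stood at -0.50 when wildtype 1 was the only control. With all 6 libraries the medians of chondrocyte and macrophage markers were 2.13 and 1.13. With wildtype 1 as the only control they were 0.95 and 0.99. The part of these other cells in the E2F target and mitosis differences was not tested.

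**Figure D4:**
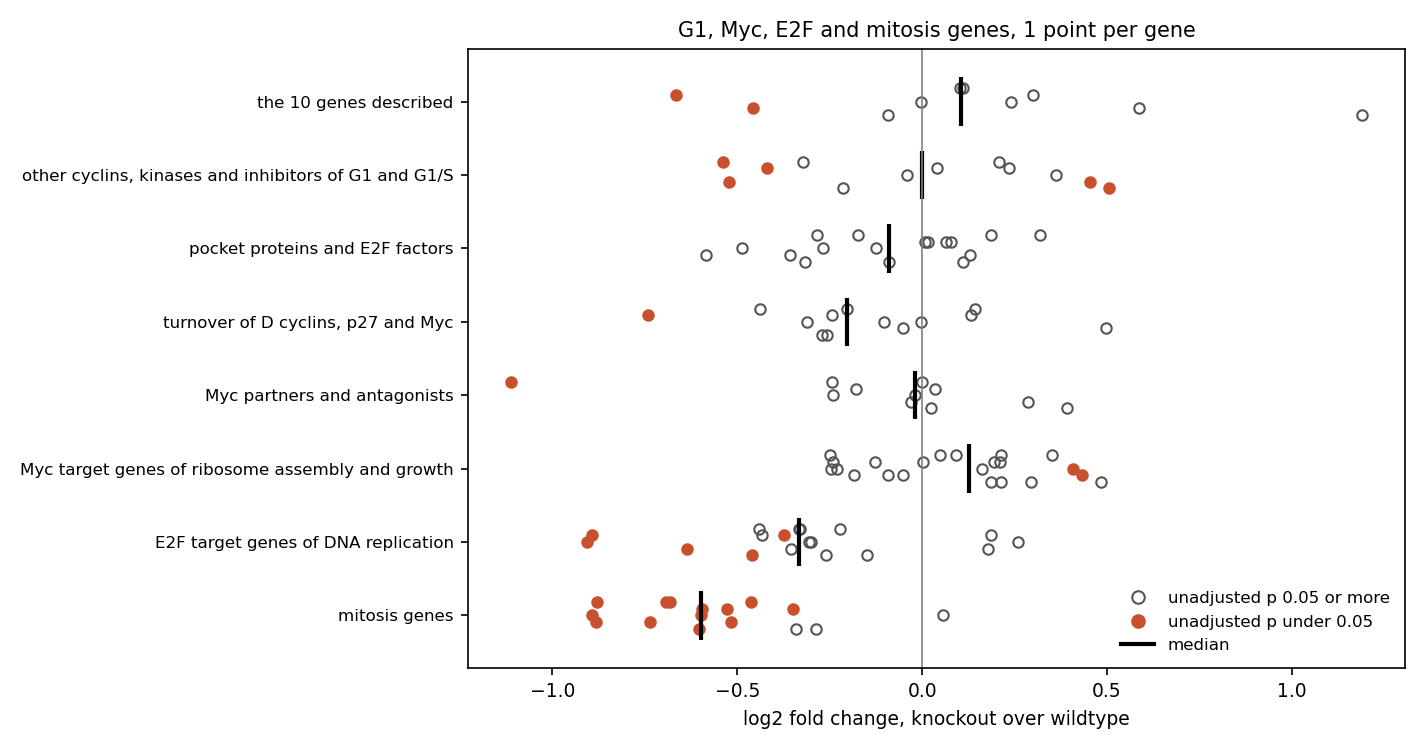
Log2 fold change of knockout over wildtype (x axis) for every tested gene of the 10 described and of 7 related lists (rows), 1 point per gene, filled where the unadjusted p was under 0.05, with a black bar at the list median. Medians run from -0.60 for mitosis genes and -0.33 for E2F targets to 0.13 for Myc targets.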

How the data were processed

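RNA sequencing counts were analysed for 3 knockout and 3 wildtype libraries of sorted calvarial osteoblasts. The table deposited by the authors held raw counts per Entrez gene ID, made with CASAVA 1.7, Subread and featureCounts on mm10, per the submitters' processing notes. The sources used here do not give the settings. The RefSeq table of GRCm38.p6 and GENCODE release M21 named 93.06% of the IDs, and 0 columns were left unassigned. EdgeR 4.0.16 in R 4.3.3 tested knockout against wildtype on all 6 libraries without covariates (filterByExpr, TMM factors, quasi-likelihood test, Benjamini-Hochberg adjustment over 13505 genes, threshold 0.05). Levels are CPM as mean ± SD (n = 3), and fold changes log2 ± SE. Exon lengths are summed GENCODE exons. The 3 shares were compared by exact permutation and adjusted over 3. No pair of libraries agreed within sampling noise (chi-square per degree of freedom 18.3 to 139.1).

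The fits were tested on simulated data. Genes were named by rule: all 10 members, Cdc73, the 3 of smallest p in each pathway list, and 5 genes nearest to Myc and to Ccnd1. The members and lists were chosen with earlier results of these data known. Alternatives were other scalings (DESeq2's size factors, upper quartile, library size alone), no filter or a minimum of 1 CPM in 3 libraries, DESeq2 1.42.0, limma 3.58.1 (voom, with and without quality weights), a replicate block, removal of unnamed IDs, and leaving out libraries.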

Additional observations from a re-analysis of the deposited data

How the results depend on the processing

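None of the 10 genes passed the threshold in any of 17 alternative fits, the lowest adjusted p being 0.0621 (edgeR, Cdk4 without wildtype 1), and DESeq2 gave no adjusted p for Cdk6. Of 170 recomputed fold changes, 156 kept their sign. With library size alone Ccnd1 turned to -0.11 and Cdkn1b to -0.10, and against wildtype 1 as the only control to -0.077 and -0.14. Leaving out 1 library gave -0.061 to 0.17 for Ccnd1 and -0.011 to 0.23 for Cdkn1b, both turning without wildtype 2. Cdkn2d, at 0 within rounding, turned to 0.0053 with DESeq2's size factors and with DESeq2, 0.0062 with voom, 0.058 with voom and quality weights, 0.0042 with the replicate block, and ran from -0.15 to 0.12 when 1 library was left out, positive without knockout 2 (0.038), knockout 3 (0.063) or wildtype 3. For all genes, edgeR called 0 of 13505 (1974 at an unadjusted p under 0.05), 24 without the filter, and 0 to 409 when 1 library was left out (409 without wildtype 1, 294 higher and 115 lower). DESeq2 called 248, voom 0. The replicate block gave 236 calls. Deviations from the group means correlated at 0.115, -0.074 and 0.222 between same-numbered libraries, and at -0.354 to 0.347 between the other pairs. With 3 libraries per group, these values cannot decide whether the numbers pair the samples. The shares kept their direction in every alternative. Leaving out 1 library gave -5.04 to -0.56 percentage points for Ccnd1, -0.40 to -0.20 for Cdk4 and 2.98 to 8.08 for Cdkn1b. Counts under 50 per library limit Cdk6.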
